A study of Drosophila melanogaster with 24 samples.

Results

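These are 74 genes of the fruit fly Drosophila melanogaster whose messenger RNA was far more abundant in the antenna at 8 h after pupation than at any other stage sampled. They were chosen by their measured levels. Each gene was given the counts of its most abundant transcript, scaled to 1000000 gene counts per library (CPM), and averaged over the 6 libraries of each stage. Genes with an 8 h mean of 20 CPM or more (5469 of 13409 genes) were ranked by the log2 ratio of the 8 h mean plus 1 to the highest other stage mean plus 1, and the top 100 were kept. Leaving out 26 of these 100 by symbol (the Cpr, Lcp, Edg and Twdl cuticle protein families, Obp83g and amos) left the 74 genes, called members below. Their height at 8 h over the other stages is what chose them, so stage values are given as a description with no test.

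The libraries came from polyA RNA of 4 stages. The first was the imaginal disc of the wandering larva, and the later ones were antennae taken 8 h or 40 h after pupation or from adults. Each stage had 3 genotypes in 2 libraries each, 24 in all, and every fly carried w[1118]. The wild type was w[1118];;+/+. The heterozygote was w[1118];;rn[tot]/TM6, which carries the TM6 balancer chromosome as well as 1 rn[tot] allele. The mutant was w[1118];;rn[tot]/rn[tot], without TM6. In comparisons with the heterozygote, rn[tot] and TM6 cannot be told apart. In those with the wild type, neither can rn[tot] and other differences between the stocks. The product of rotund (rn) is a zinc-finger transcription factor of the distal appendages, and the study asked how it shapes antennal gene expression over time. The labels do not say whether the 2 libraries of a group came from separate animals, so p-values rest on a spread between libraries that may be technical. In the main fit that spread was estimated for each gene over all 12 groups of stage and genotype together. It is thus not the spread within the groups compared. The larval libraries were labelled imaginal disc and the others antenna, so that between these stages the stage and the tissue dissected cannot be told apart. In these bulk samples, fewer cells of a type and less RNA per cell cannot be told apart either.

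A few hours after puparium formation the steroid hormone ecdysone falls to a trough between its larval and pupal peaks. The nuclear receptor Ftz-f1 is made in that window and sets the timing of prepupal genes. The antennal disc everts at the same time, and its epithelium secretes the thin pupal cuticle: chitin fibres, proteins that bind them, and enzymes that modify them. Sensory organ precursors are chosen and begin to divide in the same epithelium.

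All 24 libraries held between 8060181 and 15123603 gene counts, and all 74 members passed the filter on low counts, which left 10993 genes for testing. The antennal genes Dll, hth, ss and dan were present in all 6 of the 8 h libraries. dac was lower, at 5.20 to 10.5 CPM, and so was lz, at 14.1 to 24.7 CPM. The summed level of 8 antennal markers was 1616 to 2507 CPM, with hth (585 to 1493 CPM) and Dll (416 to 647 CPM) as its largest parts. By contrast, 7 salivary gland markers summed to 0.643 to 2.73 CPM, and ng1 among them was at 0. Other tissues were less low: eye disc markers summed to 147 to 257 CPM, leg disc markers to 198 to 419 CPM and glial markers to 183 to 260 CPM. Tracheal markers that are not members summed to 4.92 to 11.8 CPM. Hemocyte, muscle and fat body markers are given below. rn stood at 127 and 79.3 CPM in the wild type, 73.9 and 82.2 CPM in the heterozygote and 48.8 and 44.6 CPM in the mutant at 8 h. In the larva the mutant was the highest, at 74.7 and 68.7 CPM against 42.7 and 43.7 CPM in the wild type and 48.0 and 51.1 CPM in the heterozygote. The effect of rn[tot] on the transcript is not given in the labels. The wild type library 1 of the 8 h antenna stood apart. Its ribosomal protein transcript RpL8 was at 28.7 CPM against 1819 to 2173 CPM in the other 5, RpL35A was at 12.8 against 900 to 1081 CPM, and mitochondrial genes took 3.82% of its counts against 1.17% to 1.75%. A larval heterozygote library was also low in RpL8 (95.4 CPM against 2115 to 2611 CPM in the other 5 larval libraries).

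Together the 74 members made up between 11.8% and 15.5% of all gene counts in each 8 h library. Their share was 0.2003% to 0.269% in the larval disc, 0.176% to 0.290% at 40 h and 0.0532% to 0.141% in the adult. In 68 of the 74, every 8 h library lay above every library of the other stages. The exceptions were CG13044, CG9083, Tpc2, CG4151, CG17127 and CG5756, and without wild type library 1 the only exception was CG5756 (73 of 74, a count added after the data were seen). Of all genes tested, 6.05% were higher at 8 h than at each other stage by edgeR's quasi-likelihood test at an adjusted p of 0.05. All 74 members were among them, which the rule made near certain.

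**Figure D1:**
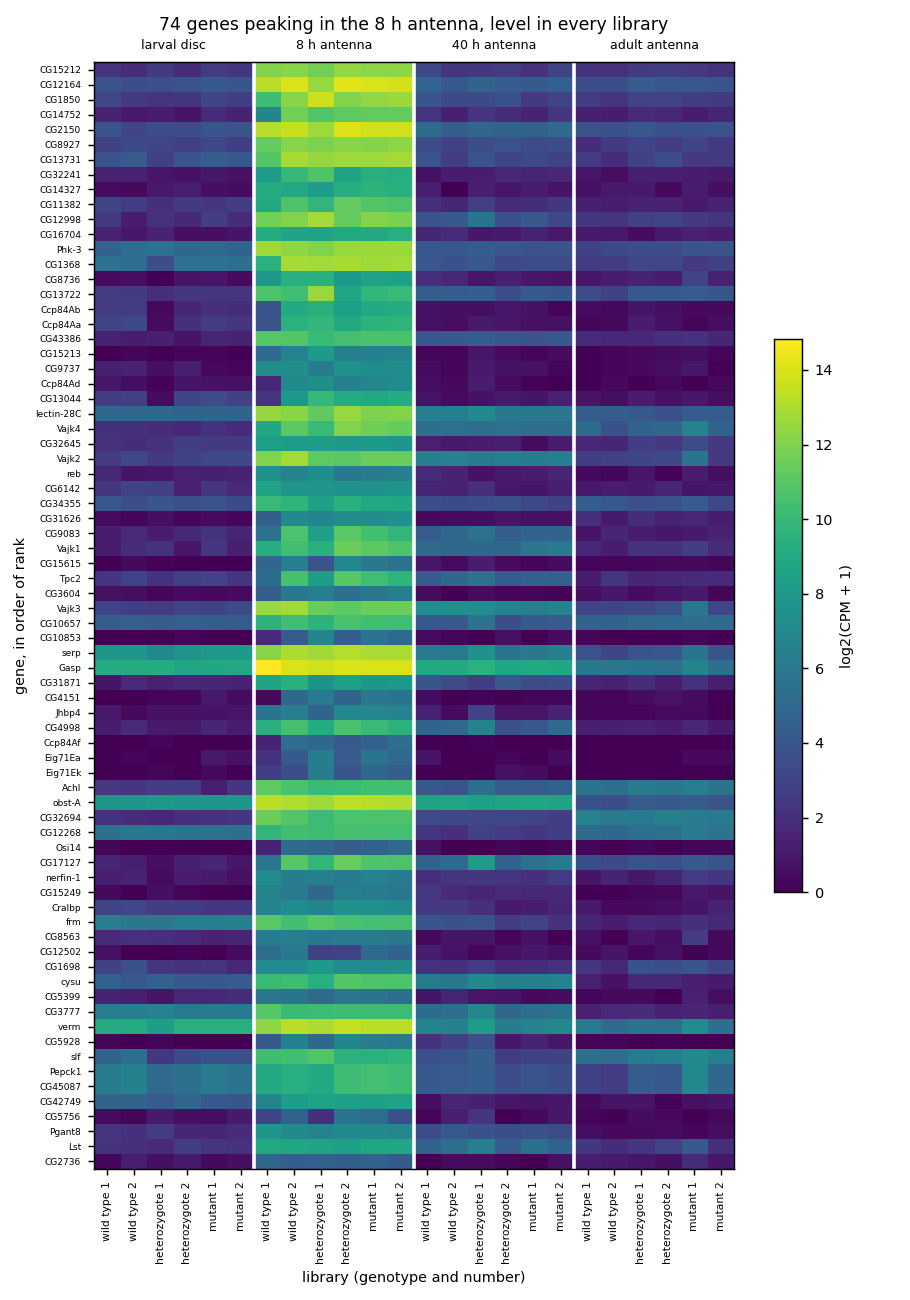
The level of each of the 74 members (rows, in order of rank) in all 24 libraries (columns, grouped by stage and genotype), as log2(CPM + 1) on the colour scale. The 8 h block is bright in every row, and within it wild type library 1 has dark cells in genes such as Ccp84Ab, CG13044 and CG4151.

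The rule's log2 ratio ran from 9.45 for CG15212 down to 3.25 for CG2736, the gene of rank 100. Just inside the limit were CG5756 (3.40), Pgant8 (3.37) and Lst (3.35). Just outside were mira (3.17), tfc (3.13), CG2444 (3.09), CG15279 (3.04) and CG6426 (3.003). The ratio fell off in small steps there, with no break at the limit. Of the 74, 45 (60.8%) are known only by a CG number, against 37.4% of all genes tested. The 26 genes left out by symbol all have another name, so leaving them out raised the share among members.

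The most abundant member was Gasp. It encodes a secreted chitin-binding protein known from the tracheal cuticle (3R 6088799 to 6100887), and stood at 29126 and 17059 CPM in the wild type at 8 h, 13811 and 15953 CPM in the heterozygote, and 16097 and 16303 CPM in the mutant. Its mean was 18058 CPM at 8 h, 520 CPM in the larva, 530 CPM at 40 h and 60.8 CPM in the adult. Wild type library 1 was the high value, and the other 5 libraries lay close together.

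Per length of the counted transcript Gasp was also the most abundant member, at 12369 CPM per kb. CG15212 (10584 CPM per kb), Phk-3 (10468) and CG2150 (10330) came close behind it on that scale. obst-A, which encodes another chitin-binding protein (X 20239855 to 20243209), had 4712 CPM per kb. Its 8 h libraries ranged from 6755 to 10575 CPM without a gap between genotypes. It kept 4.48% of its 8 h level at 40 h and 2.49% in the larva.

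serp and verm encode chitin deacetylases and are neighbours on arm 3L (19700977 to 19708015 and 19690033 to 19695260). serp stood at 4654 and 8264 CPM in the wild type, 6602 and 9160 CPM in the heterozygote, and 7936 and 7835 CPM in the mutant. verm stood at 5219 and 10162, 8204 and 11825, and 10083 and 9952 CPM in the same order. The 2 genes had the same order of libraries, lowest in wild type library 1 and highest in heterozygote library 2. They differed in the larva, where serp was at 206 CPM (2.78% of its 8 h level) and verm at 561 CPM (6.07%). reb (rebuff), which acts in chitin deposition in the embryonic trachea, was much lower: 171 and 107, 166 and 60.9, and 74.6 and 85.4 CPM.

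The Vajk genes encode cuticle proteins, and Vajk1, Vajk2 and Vajk3 lie together on arm 2L (13920707 to 13947476), while Vajk4 lies on 2R. Vajk2 stood at 4158 and 7029 CPM in the wild type, 2288 and 2077 CPM in the heterozygote, and 2760 and 2710 CPM in the mutant. Vajk3 stood at 6060 and 7265, 2648 and 2172, and 2869 and 2903 CPM. Both wild type libraries were above the 4 others for these neighbours. Vajk1 had another order, at 604 and 1315, 692 and 2792, and 2154 and 1746 CPM, and so did Vajk4, at 470 and 2193, 1042 and 4128, and 3160 and 2575 CPM. In Vajk1 and Vajk4 the first library of the wild type and of the heterozygote were the 2 lowest of the 6. No Vajk gene passed in a genotype comparison at 8 h: against wild type the mutant log2 change was 1.02 ± 0.59 (SE) for Vajk1, -1.03 ± 0.60 for Vajk2, -1.21 ± 0.54 for Vajk3 and 1.11 ± 0.68 for Vajk4 (edgeR adjusted p = 0.278, 0.283, 0.182 and 0.309).

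Other members have known or family roles in the cuticle. The Ccp84A genes encode cuticle proteins of a cluster on 3R (6689602 to 6704903), and Ccp84Aa, Ccp84Ab, Ccp84Ad and Ccp84Af were members. Ccp84Aa stood at 13.1 and 712 CPM in the wild type, 899 and 501 CPM in the heterozygote, and 755 and 788 CPM in the mutant. All 4 were under 10% of the median of the other libraries in wild type library 1. slf (schlaff), a C-type lectin needed to hold cuticle layers together, stood at 1181 and 1285, 1798 and 737, and 702 and 841 CPM. cysu, which encodes a heme peroxidase of the wing cuticle, was at 665 to 1828 CPM and kept 6.63% of its level at 40 h. Osi14, of the Osiris family, was at 1.64 CPM in wild type library 1 and 18.7 to 34.9 CPM in the other 5.

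The members of highest rank are without a role that can be named here. CG15212 (3L 5131545 to 5132127) stood at 4375 and 4727 CPM in the wild type, 3245 and 5618 CPM in the heterozygote, and 5148 and 5145 CPM in the mutant. It had 3.82 CPM in the larva, 5.44 at 40 h and 4.16 in the adult, and its neighbour CG15213, 668 bases away, was also a member. CG12164, the gene with the second highest mean, stood at 9545 and 16706, 6042 and 19386, and 16263 and 15013 CPM. CG1850 was out of step with it: its highest value, 13120 CPM, was in heterozygote library 1, and its lowest, 1191 CPM, in wild type library 1. CG14752, CG2150, CG8927, CG13731, CG32241 and CG14327 filled the next ranks, with 8 h means from 565 CPM (CG14327) to 12087 CPM (CG2150).

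Further down the top 20 stood CG11382, CG12998, CG16704, CG1368, CG8736, CG13722, CG43386 and the chemosensory-protein family member Phk-3. Phk-3 stood between 4100 and 6836 CPM at 8 h and between 6.25 and 13.8 CPM in the adult antenna. CG1368 was at 723 CPM in wild type library 1 and 6704 to 7499 CPM in the other 5 libraries. CG13722 was the most uneven of these: 1626 and 1267 CPM in the wild type, 5904 and 430 CPM in the heterozygote, and 896 and 1065 CPM in the mutant.

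Other members with a known product belong to no cuticle group. nerfin-1, a zinc-finger transcription factor of early neuron differentiation (3L 909112 to 912319), stood at 147 and 73.7 CPM in the wild type, 83.5 and 69.2 CPM in the heterozygote, and 92.6 and 71.1 CPM in the mutant. Its mean was 1.06 CPM in the larva, 3.81 at 40 h and 2.38 in the adult. Lst, which encodes the peptide hormone limostatin, was at 337 to 509 CPM, and at 9.40% of its 8 h level at 40 h, the highest such share among the members. Eig71Ea and Eig71Ek belong to the late ecdysone-induced genes known from the prepupal salivary gland. At 8 h Eig71Ea was at 3.28 and 17.3, 72.7 and 18.04, and 51.4 and 32.4 CPM, while the salivary gland marker Eig71Ee of the same cluster did not exceed 1.19 CPM. In the larval libraries Eig71Ee was at 3.47 to 87.3 CPM.

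Pepck1 encodes phosphoenolpyruvate carboxykinase, an enzyme of gluconeogenesis (2R 18536767 to 18539416). CG45087 has the same coordinates in the annotation, so the 74 members lie at 73 loci and the values of this pair cannot be separated. Pepck1 stood at 487 and 632 CPM in the wild type, 530 and 1154 CPM in the heterozygote, and 1331 and 1212 CPM in the mutant at 8 h. Tpc2, the mitochondrial carrier of thiamine pyrophosphate, overlaps CG9083 on the opposite strand (2R 24897902 to 24900734 and 24898273 to 24899505), and whether counting used strand is not given. Tpc2 was at 37.0 and 1486, 313 and 2018, and 1246 and 830 CPM, and CG9083 at 44.9 and 1555, 326 and 2123, and 1317 and 867 CPM. The values of these 2 genes ran in parallel, and they may share reads.

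The members were uneven across the 6 libraries of the 8 h antenna. In wild type library 1, 35 members had their lowest value and 16 their highest. In heterozygote library 1, 25 had their lowest and 17 their highest, and in heterozygote library 2, 24 had their highest. The mutant libraries were in between, with 4 highest members each. In wild type library 1 the median member was 0.50 lower on the log2 scale than its mean over the 6 libraries, whereas the median of all tested genes was 0.02 higher.

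**Figure D2:**
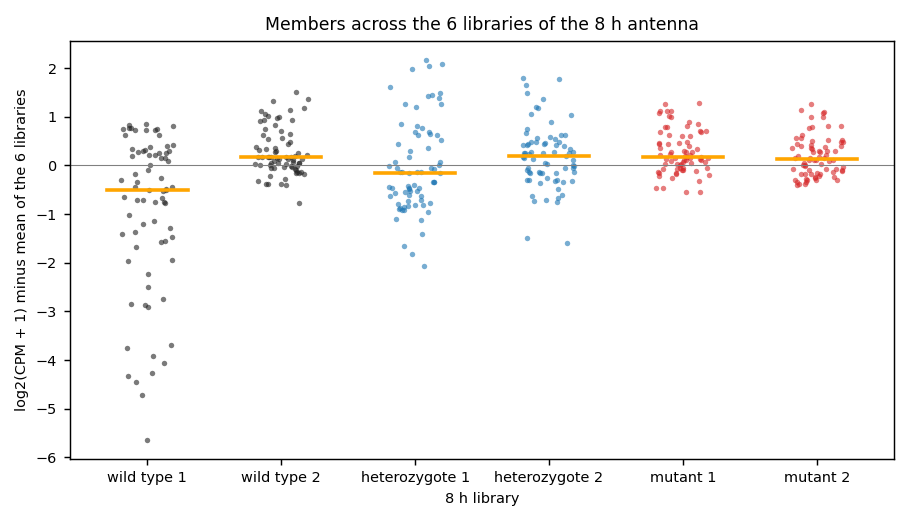
Each point is 1 member in 1 of the 6 libraries of the 8 h antenna, drawn as log2(CPM + 1) minus the mean of that member over the 6 libraries, with orange bars at the medians. Wild type library 1 has a long tail down to below -5, heterozygote library 1 is spread to both sides, and the mutant libraries are narrow.

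In 12 members wild type library 1 held under 10% of the median of the other 5 libraries; 2.19% of all tested genes with an 8 h mean of 20 CPM or more did so. These were the 4 Ccp84A genes, CG14752, CG13044, CG9083, Tpc2, CG10853, CG4151, Osi14 and CG17127. CG4151 was at 0.273 CPM there and at 27.0 to 66.6 CPM elsewhere, and CG13044 at 3.82 and 240 to 992 CPM. No member was that low in any other 8 h library. In the larva, heterozygote library 1, the one low in RpL8, was also low in some of the 12. Ccp84Aa was at 0.359 CPM there and at 3.12 to 8.52 CPM in the other 5 larval libraries, and CG13044 at 0.359 and 5.30 to 10.5 CPM. CG14752 was not low there (1.25 CPM, beside 0.713 to 2.52 CPM). Longer transcripts tended to have a higher ratio of wild type library 1 to library 2 (Spearman's rho 0.41 over 74 members, which share those libraries), and the part of the ribosomal protein loss, of transcript length or of mitochondrial RNA in these levels was not tested.

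Between the 2 heterozygote libraries 31 members (41.9%) differed by over 2-fold, as did 2.14% of 5596 other genes. Of those 31, 12 were higher in library 1 and 19 in library 2. CG13722 was 13.7-fold higher in library 1, and CG5756 was 17.2-fold higher in library 2 (2.97 and 51.1 CPM). CG15615 (9.64-fold), CG9083 (6.50-fold) and Tpc2 (6.45-fold) were also higher in library 2, Eig71Ek (5.41-fold) and CG10853 (5.25-fold) in library 1. The spread was thus in both directions and touched genes of different kinds.

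Between the wild type libraries 29 members (39.2%) differed by over 2-fold, as did 30.3% of other genes, and all 29 were higher in library 2. Between the mutant libraries only CG5756 did, 1 of 74 members (1.35%), as did 0.197% of other genes. The median fold between libraries was 1.74 in the wild type, 1.88 in the heterozygote and 1.12 in the mutant for members, and 1.58, 1.10 and 1.07 for other genes.

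**Figure D3:**
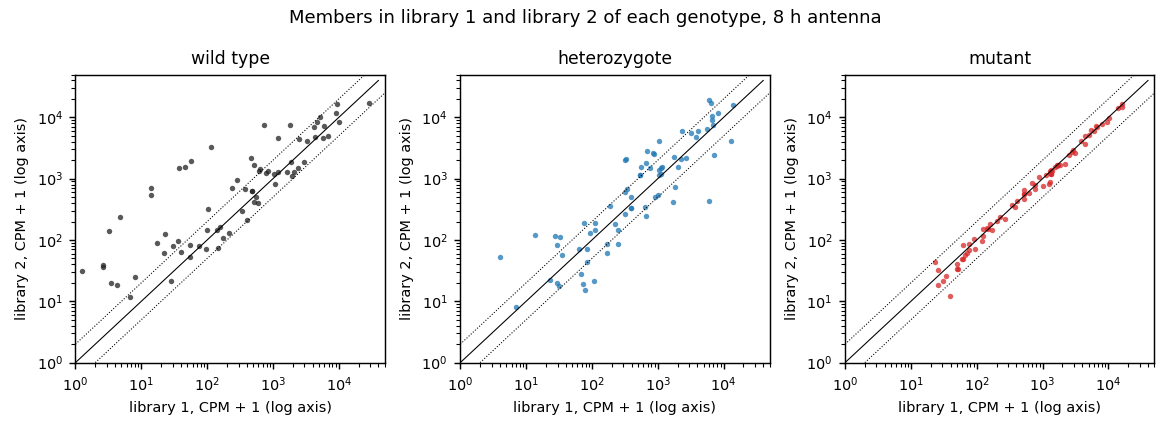
The 74 members in library 1 (horizontal) and library 2 (vertical) of each genotype at 8 h, as CPM + 1 on log axes, with a line of equality and dotted lines at 2-fold. Members scatter above the line in the wild type, on both sides in the heterozygote, and lie along it in the mutant.

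Ecdysone response genes differed between these libraries too. Eip93F was at 1276 and 433 CPM in the wild type, 719 and 232 CPM in the heterozygote, and 248 and 252 CPM in the mutant. Eip75B, a nuclear receptor gene induced by ecdysone, was at 116 and 46.8, 108 and 30.1, and 27.8 and 39.4 CPM. The first libraries of the wild type and of the heterozygote were the 2 highest for both genes, which were chosen after their values were seen. Other genes of the response given here differed less, or the other way, between the heterozygote libraries. EcR and br were nearly even there, and so was Eip74EF (75.7 and 69.6 CPM), while Hr39 was somewhat higher in library 1 (250 and 200 CPM). ftz-f1 and Hr3 (4.92 and 16.8 CPM) were higher in library 2. EcR was at 261 and 123, 105 and 107, and 108 and 109 CPM, br at 192 and 111, 99.1 and 91.2, and 88.0 and 85.3 CPM, and ftz-f1 at 1159 and 797, 324 and 666, and 619 and 533 CPM. Markers of other tissues moved with genotype or library as well: summed hemocyte markers (11 of 11 detected) were at 268 and 174, 132 and 150, and 144 and 140 CPM, and summed muscle markers (12 of 12) at 600 and 440, 322 and 309, and 301 and 308 CPM. Fat body markers (9 of 9) were at 442 and 461, 117 and 205, and 208 and 263 CPM. The part of stage, tissue makeup or library in the spread of the members was not tested.

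At the other stages the members had low mean levels, mostly above 0. Their median level was 0.576% of the 8 h level in the larval disc (range 0.0721% to 6.80%), 0.941% at 40 h (0.0711% to 9.40%) and 0.286% in the adult (0% to 6.97%). The highest other stage was 40 h for 37 members, the larva for 26 and the adult for 11. Ccp84Af and Eig71Ek had no counts in any adult library. The members with the highest larval shares were CG42749 (6.80%), CG45087 (6.65%), Pepck1 (6.64%) and verm (6.07%), and in the adult slf (6.97%), CG2736 (5.36%) and CG1698 (5.13%).

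The 9 members of rank 18 or better stood at 0.0721% to 0.246% of their 8 h level in the larva, 0.116% to 0.247% at 40 h and 0.0843% to 0.144% in the adult. For these 9 the 3 other stages, though far apart in development, gave similar small shares. Over all 74 members the level at each other stage rose with the 8 h level (Spearman's rho 0.756 for the larva, 0.799 for 40 h and 0.788 for the adult). Whether reads were assigned to the wrong library was not tested, and no expression is read here from levels near 0.1% of the 8 h level.

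**Figure D4:**
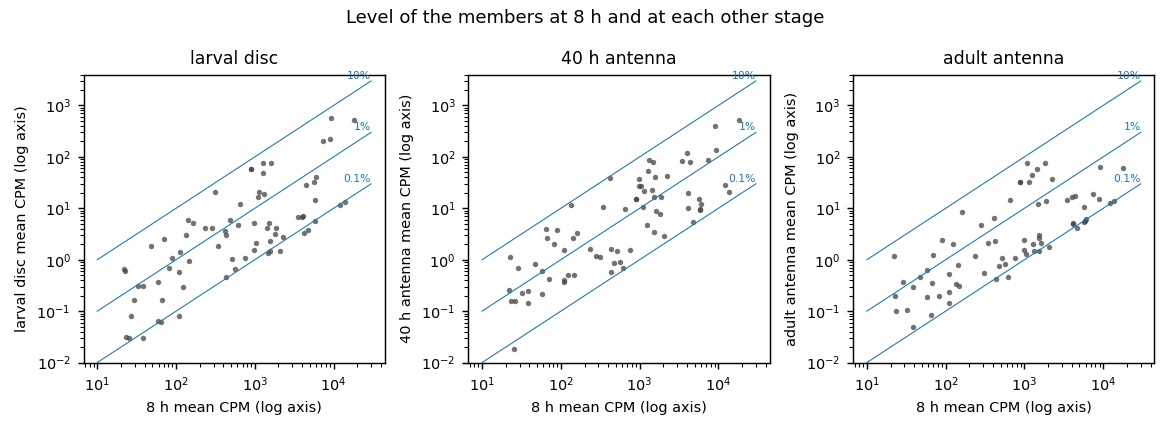
The mean CPM of each member at 8 h (horizontal) against its mean in the larval disc, at 40 h and in the adult (vertical), on log axes, with lines at 0.1%, 1% and 10% of the 8 h level. Points lie between the 0.1% and 10% lines in most cases, with a lower edge near 0.1%, and Ccp84Af and Eig71Ek are not drawn in the adult panel because they are at 0.

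The counted transcripts of the members were short, and some members lay side by side. The counted transcript had a median of 1506 exonic bases and 3 exons, against 1907 bases and 4 exons over all tested genes, and 25.7% were under 1 kb against 18.4%. The median gene span was close to that of all genes, at 2686 and 2638 bases. Members were found on 2L (10), 2R (17), 3L (19), 3R (16) and X (12), and none lay on chromosome 4. Of the 74, 27 had another member within 20 kb, in 15 pairs. These included the Ccp84A cluster, Vajk1 to Vajk3, verm and serp, CG15212 and CG15213, and Eig71Ea and Eig71Ek. Phk-3 and CG2736 lay 223 bases apart on 2R (24970843 to 24973207 and 24973431 to 24975341).

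The rn mutant and the wild type differed in no member at 8 h by the test across all genes. None of the 74 was higher, where 0.973% of all tested genes were, and none was lower, where 2.38% were (edgeR quasi-likelihood test, Benjamini-Hochberg adjusted p under 0.05, two-sided). At an unadjusted p under 0.05, 6 members were higher and 4 lower, against 7.62% and 17.5% of all genes. DESeq2 called no member and 10.7% of all genes. A fit of the 8 h libraries alone called none of 9206 genes, so there the members did not differ from all genes in their calls. The median change over members was 0.31 on the log2 scale, beside -0.06 for all genes. Both mutant libraries lay above both wild type libraries in 21 members (28.4%, where 19.2% of all genes did) and below them in 20 (27.0%, where 24.9% did).

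The members nearest to the threshold were CG34355 (-0.94 ± 0.32, adjusted p = 0.102), CG31871 (-1.17 ± 0.44, adjusted p = 0.127) and Pepck1 (1.18 ± 0.47, adjusted p = 0.141). The count of 0 rested on wild type library 2. Without it, only the wild type library that stood apart was left, and 28 members passed, 24 higher and 4 lower, when 42.3% of all tested genes passed as well. Without wild type library 1 the count stayed at 0.

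Mutant and heterozygote did not differ in any member at 8 h either. No member was higher (0.0182% of all genes) or lower (0.0728%), and 1 in each direction had an unadjusted p under 0.05: CG12502 (2.14 ± 0.58, adjusted p = 0.444) and CG13722 (-1.69 ± 0.67, adjusted p = 0.918), beside 1.24% and 3.23% of all genes. DESeq2 called no member and 0.386% of all genes, and a fit of the 8 h libraries alone called none of 9206 genes. Both mutant libraries lay above both heterozygote libraries in 16 members (21.6%; 14.8% of all genes) and below them in 1 (1.35%; 19.5%). The SE of the change was 0.58 for Vajk1 and 0.90 for Ccp84Aa, so that a 2-fold difference in such genes was not detectable at this spread. The comparison shares its mutant libraries with the one above. Without heterozygote library 2, 1 member passed, beside 0.451% of all genes.

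CG12502 was the exception when the heterozygote was compared with the wild type, the same wild type libraries as above. It is a gene without a role that can be named here (3L 865396 to 871701) and stood at 39.7 and 62.7 CPM in the wild type, 6.12 and 6.99 CPM in the heterozygote, and 33.2 and 24.6 CPM in the mutant at 8 h. Both heterozygote libraries lay below the 4 others, and the change was -2.97 ± 0.59 (edgeR adjusted p = 0.0111). By this test it was the only member to fall, where 2.69% of all genes did, and none rose, where 1.25% did. At an unadjusted p under 0.05, 6 members were higher and 8 lower, beside 8.98% and 16.6% of all genes. DESeq2 called 4 members, 1 higher and 3 lower, beside 11.5% of all genes. In this comparison rn[tot], TM6 and stock cannot be told apart. The fold of CG12502 was similar in the settings that lost its call. The change was -2.86 with counts summed over transcripts (edgeR adjusted p = 0.0534) and -2.92 in a fit of the 8 h libraries alone (0.128). Without heterozygote library 1 it was -2.87 (0.099), and without library 2 it was -3.06 (0.0684). Both heterozygote libraries lay above both wild type libraries in 5 members (19.0% of all genes) and below in 12 (21.0%). The count of members that passed was 33 without wild type library 2, when 42.4% of all genes passed, and 2 without heterozygote library 2, when 1.86% did.

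**Figure D5:**
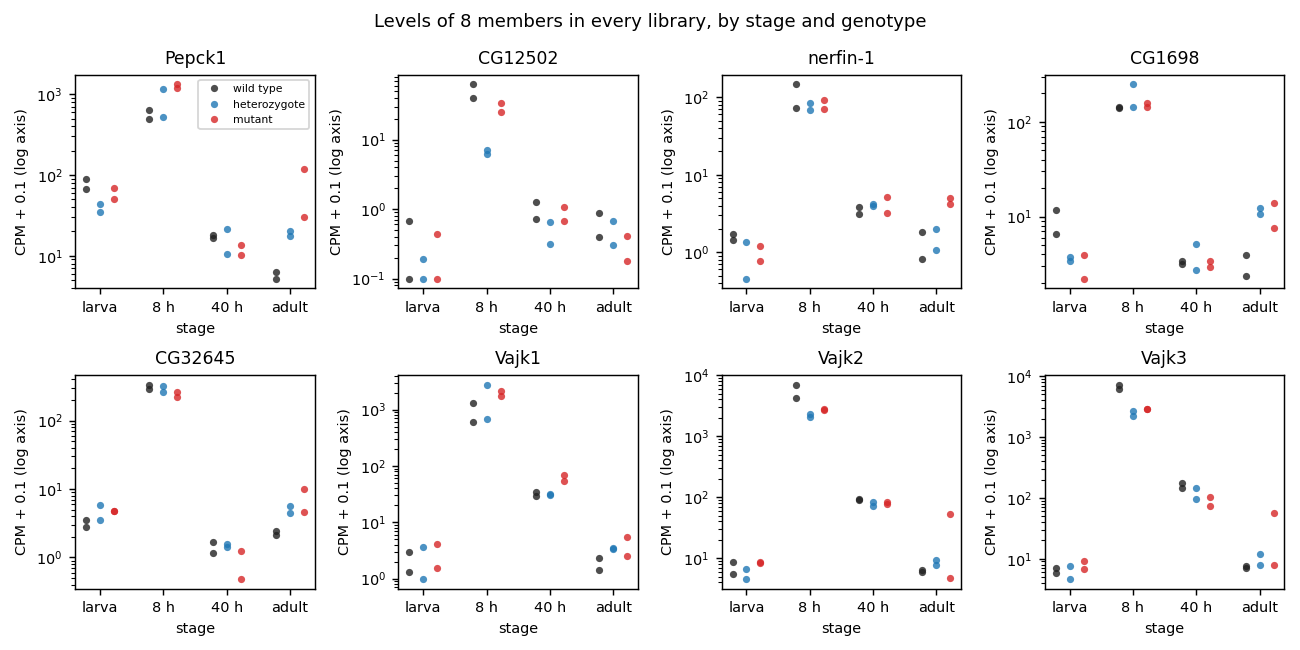
The level of 8 members in each of the 24 libraries, as CPM + 0.1 on a log axis, by stage and with genotypes in colour (black wild type, blue heterozygote, red mutant; 1 point per library). CG12502 is low in both heterozygote libraries at 8 h, Pepck1 is high in both adult mutant libraries, and Vajk2 and Vajk3 are high in 1 adult mutant library.

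At the other stages, members passed edgeR's test between mutant and wild type in the adult antenna but not in the larva or at 40 h. Members could pass the filter on low counts through their 8 h libraries alone. Several were near 0 at other stages, where a change could hardly be detected. Ccp84Af, Osi14 and CG10853, for example, had larval means of 0.0299, 0.0315 and 0.0297 CPM. In the larval disc 0 members were higher (0.801% of all genes) and 0 lower (0.737%). There, 0 and 3 had an unadjusted p under 0.05, beside 3.48% and 5.41% of all genes, and DESeq2 called 2 as lower, beside 2.76% of all genes. In the 40 h antenna 0 were higher (0.700%) and 0 lower (0.591%). There, 0 and 3 had an unadjusted p under 0.05, beside 3.33% and 4.08% of all genes, and DESeq2 called 2 as lower, beside 2.54% of all genes. In the adult 5 members passed, all higher in the mutant, beside 1.91% of all genes, and none was lower, beside 1.17%. DESeq2 called 10 members in the adult, beside 5.58% of all genes, and a fit of the adult libraries alone called 10, beside 12.9%, all of them higher. The median change was 0.46 over members and 0.00 over all genes, and 60 members had a positive and 12 a negative change. All members share these libraries, so the signs are not independent. In the adult, 56 of the 74 were under 1% of their 8 h level and 30 under 0.2%. The last of these limits is close to the level from which no expression is read here. No genotype effect on the members as a set is therefore read from the median or the signs. The summed level of the members was 635 and 499 CPM in the wild type, 703 and 715 CPM in the heterozygote, and 1398 and 678 CPM in the mutant. Only mutant library 1 was thus above the other genotypes.

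Among the members that passed, Pepck1 had the largest change. In the adult antenna it stood at 6.18 and 5.12 CPM in the wild type, 19.998 and 17.5 CPM in the heterozygote, and 119 and 30.4 CPM in the mutant, 3.72 ± 0.54 on the log2 scale (edgeR adjusted p = 0.000598). The 3 genotypes did not overlap, and the call held in all 12 alternatives tried, with changes from 2.42 to 4.39. CG45087, at the same locus, rose by 3.70 ± 0.54 and is the same signal.

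The other called members were at low levels. CG1698 stood at 3.78 and 2.25 CPM in the wild type, 12.2 and 10.6 CPM in the heterozygote, and 13.8 and 7.48 CPM in the mutant (1.81 ± 0.40, adjusted p = 0.0169), so that mutant and heterozygote overlapped. CG32645 stood at 2.33 and 2.02, 5.56 and 4.41, and 9.81 and 4.56 CPM (1.72 ± 0.35, adjusted p = 0.0102). nerfin-1 stood at 0.727 and 1.71, 0.972 and 1.89, and 4.91 and 4.09 CPM (1.89 ± 0.48, adjusted p = 0.0411), with both mutant libraries above the 4 others. These 3 lost the call when wild type library 1, wild type library 2 or mutant library 1 was left out, with adjusted p up to 0.271, 0.264 and 0.437. nerfin-1 also lost it without mutant library 2 (0.0987) and with counts summed over transcripts (0.0558).

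Adult mutant library 1 stood apart in the members. Of the 74, 39 had their highest adult value there. Of the 29 members with 5 CPM or more in a mutant library, 13 were over 2-fold higher in library 1 than in library 2 and none the other way, and 1.99% of 8505 other genes were over 2-fold higher in library 1. Vajk3 stood at 6.98 and 7.61 CPM in the adult wild type, 7.92 and 11.9 CPM in the heterozygote, and 55.9 and 7.71 CPM in the mutant. Vajk2 (52.0 and 4.56 CPM in the mutant), serp (50.6 and 12.8 CPM) and verm (147 and 42.3 CPM) had the same shape, and none of the 3 passed the test.

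Without adult mutant library 1, 2 members passed in place of 5, Pepck1 and CG45087, beside 1.29% of all genes. The mutant effect at 8 h was also set against its mean over the 3 other stages. For members near 0 at those stages, that mean rested on few counts. No member differed in this test in either direction, where 0.109% and 0.327% of all genes did; 0 and 4 had an unadjusted p under 0.05, beside 4.08% and 11.9% of all genes. DESeq2 called no member and 2.62% of all genes. The smallest of these p-values belonged to Vajk3 (-1.74 ± 0.63, adjusted p = 0.240) and Vajk2 (-1.80 ± 0.70, adjusted p = 0.264). Without 8 h wild type library 2, 17 members passed, when 35.8% of all genes did.

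Genes that belong to the same processes but not to the 74 were followed from lists of 237 genes. Of the 227 that were tested and no members, 25 were higher at 8 h than at each other stage, beside 591 of all 10919 tested genes that were no members. The count by list was uneven, from 7 of 27 sensory precursor and neuron genes to 0 of 14 zona pellucida and apical matrix genes and 0 of 15 genes of actin hairs and bristles. These tests used the same libraries and stages that chose the members.

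Among chitin and cuticle enzymes 5 of 23 were higher at 8 h and 1 was lower, with serp, verm and obst-A as members. mmy, which makes the sugar nucleotide from which chitin is built, stood at 1142 CPM at 8 h, 21.7 in the larva, 150 at 40 h and 50.3 in the adult (8 h over larva 5.72 ± 0.23, adjusted p = 3.48e-12). Cht6, a chitinase, stood at 1070 CPM, beside 62.1, 372 and 2.66 CPM in the same order. obst-B (1610 CPM), obst-E (105 CPM) and y (31.3 CPM), of which the last acts in pigmentation, completed the group. The median log2 change over this list was 0.80 for 8 h over the larva and -0.06 for 8 h over 40 h, beside -0.08 and 0.02 for all genes.

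Among sensory precursor and neuron genes, 7 of 27 were higher at 8 h, namely neur, Brd, sca, ase, spdo, dpn and lz, and 2 were lower. sca, a secreted protein of proneural clusters, stood at 692 CPM at 8 h, 111 in the larva, 89.8 at 40 h and 6.60 in the adult (8 h over larva 2.63 ± 0.10, adjusted p = 3.26e-12). ase, a neural precursor transcription factor, stood at 50.4 CPM, beside 5.47, 2.43 and 0.360 CPM, and spdo, a regulator of Notch in dividing precursors, at 65.6 CPM, beside 8.76, 8.90 and 0.336 CPM. The median log2 change over this list was 1.95 for 8 h over the larva and 0.10 for 8 h over 40 h, beside -0.08 and 0.02 for all genes.

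Among 30 prepupal ecdysone response genes, ftz-f1, Sox14 and Fbp1 were higher at 8 h and 5 were lower. ftz-f1 stood at 683 CPM at 8 h, 20.1 in the larva, 16.0 at 40 h and 93.8 in the adult (8 h over larva 5.08 ± 0.18, adjusted p = 6.52e-13). Sox14 stood at 85.0 CPM, beside 38.4, 38.6 and 53.1 CPM. Fbp1, which is also in the fat body marker list, stood at 80.2 CPM, beside 23.997, 12.6 and 1.66 CPM.

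The remaining lists had 0 to 3 genes higher at 8 h. These were cv-c of 29 genes of epithelial morphogenesis, ru of 18 EGF receptor pathway genes, Wnt2 and Wnt4 of 23 Wnt, Hedgehog and Dpp pathway genes, and Drep1 and egr of 14 cell death genes. ea, gd and Spn28Dc, of 18 secreted proteases and inhibitors, and snu, of 17 transport genes, were the others. Some genes went the other way: 3 of the same 18 proteases and inhibitors were lower at 8 h than at each other stage. So was 1 gene each of the transport, Wnt, Hedgehog and Dpp, apical matrix, and actin hair and bristle lists. How many of all genes were lower was not counted. snu, an ABC transporter needed for the cuticle barrier, stood at 510 CPM at 8 h, 30.9 in the larva and 13.8 at 40 h, and at 395 CPM in the adult. It was thus high at both ends of the series' antennal stages but not between.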

How the data were processed

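Total RNA was purified on RNeasy columns for stranded mRNA sequencing, per the labels' protocols. CASAVA 1.8, BWA 0.7.12 and an unversioned DESeq2 are the tools in the submitters' processing notes. Build, counting program and strand setting were not given in the sources used here. The table the authors deposited holds raw counts for 29872 FlyBase transcripts, of which 29393 were matched by identifier to 13409 genes of the Ensembl BDGP6.54 annotation (98.7% of counts), whose coordinates are used here. The other 479 were left out. Transcripts of a gene share reads, so each gene took its transcript with the highest total (44.9% of counts kept, 8060181 to 15123603 per library). The deposited normalized table was not used here.

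Levels are CPM with TMM factors (0.881 to 1.17); the choice of members used CPM without them. Genes were tested in R 4.3.3 with edgeR 4.0.16 (filterByExpr, minimum count 10; quasi-likelihood F test; 12 stage-by-genotype groups over 24 libraries; Benjamini-Hochberg over 10993 genes at 0.05, two-sided), which was checked on simulated data. The common dispersion was 0.0521 (a coefficient of variation of 22.8%) with 12 residual degrees of freedom, which limits the precision of each fold change. Stage contrasts average the 3 genotypes. The alternatives were DESeq2 1.42.0, RLE factors, no filter, sums over transcripts, the libraries of 1 stage, leaving out a library, and a replicate term.

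The members and gene lists were chosen with earlier results of these data known. Named with values were the 20 members of highest rank, members that passed a genotype test, belong to a list, neighbour another member or lie at the rank limit, and list genes that passed. Members and other genes outside that rule, such as those named for their spread between libraries, were chosen after their values were seen. Sequences and promoter motifs were not analysed here.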

Additional observations from a re-analysis of the deposited data

How the results depend on the processing

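Of the genotype comparisons, no called member reversed under any alternative tried. With DESeq2 the number of members that passed was 4 for heterozygote against wild type at 8 h (1 higher, 3 lower), 2 for mutant against wild type in the larva, 2 at 40 h and 10 in the adult. Summing over transcripts gave 0 for heterozygote against wild type at 8 h, where 3.29% of all genes passed. A fit of only the libraries of the stage gave 0 there, where no gene passed, 1 at 40 h (1.99% of all genes) and 10 in the adult. No gene passed in that fit for mutant against wild type or mutant against heterozygote at 8 h either. Leaving out a library gave 0 to 28 members for mutant against wild type at 8 h, 0 to 1 for mutant against heterozygote, 1 to 33 for heterozygote against wild type, 0 to 17 for the mutant effect at 8 h against the other stages, 0 to 1 in the larva, 0 to 0 at 40 h and 2 to 8 in the adult. The highest 3 of these counts, 28, 33 and 17, all came from leaving out 8 h wild type library 2, when 42.3%, 42.4% and 35.8% of all genes passed. A library left alone in its group was assumed to vary like the other groups, and the cause of these differences was not tested. RLE factors and no filter left every count of members as it was or within 1.5 times. Of the listed genes, 22 to 30 were higher at 8 h under every alternative tried, beside 25. The replicate numbers did not pair the libraries. Of 66 pairs of groups, 1 had a correlation of deviations over 0.1, the larval heterozygote with the 8 h wild type (range -0.139 to 0.501). With a replicate block 1 member passed in the larva in place of 0 (1.44% of all genes), nerfin-1 in the adult had an adjusted p of 0.0531, and no other call of a member changed. The choice of members shared 66 of 74 with a minimum of 10 CPM, 67 with a pseudocount of 5, 66 with sums over transcripts, 72 to 73 when 1 of the 8 h libraries was left out, and all 74 when symbols were left out before the top 100. With 2 libraries a group, and 1 of the 8 h wild type pair apart, small changes at 8 h could not be detected.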
